A study of Mus musculus with 29 samples.

Results

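Ribosome-bound RNA of cortical microglia was compared between 4 Eif2A mice and 5 TRAP mice, 9 of the 29 libraries of the series, chosen by their labels as the groups with neither the 5xFAD transgenes nor any drug beyond tamoxifen. Eif2A mice carried the Cx3cr1CreErt2/+ driver, the Eif2s1A/A allele, a transgene written Tg(Eif2s1) and the ribosome tag Eef1a1LSL.eGFPL10a/+. The series text leaves the tag out of this genotype and writes the transgene as Tg(flEifs1). TRAP mice carried the driver and the tag alone, per the labels. All 9 mice were 6 months old, and all had 6 tamoxifen doses of 100 mg/kg from 4 to 6 weeks of age, which switches the driver on. Each library was made from polyA RNA that came down with an antibody against the GFP tag. The driver is active in microglia and also in the macrophages of the brain's borders, so the tagged ribosomes are not those of microglia alone. For reference, 3 mice with 5xFAD and the Eif2A genotype (5xFAD Eif2A) and 4 mice with 5xFAD and the tag alone (5xFAD TRAP), also 6 months old and given tamoxifen, entered the same model. Only the 5xFAD TRAP mice among these groups had received VEGF and the drug ASV.

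Eif2s1 encodes eIF2α, the subunit of translation initiation factor eIF2 on which the integrated stress response converges. A family of kinases (PERK, GCN2, PKR and HRI) phosphorylates 1 serine of eIF2α, after which eIF2B can no longer recharge eIF2 with GTP, most initiation slows, and a few mRNAs with upstream open reading frames are translated better. ATF4, the best known of these, switches on genes for amino acid supply and stress adaptation. The Eif2s1 A allele replaces that serine with alanine, so that its product cannot be phosphorylated. Microglia, the resident macrophages of the brain, are known to engage this pathway under amyloid and inflammatory stress.

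The sequences on which the pathway turns are shown first. The serine codon is codon 52 of Eif2s1 counted from the start codon (residue 51 of the mature protein), in exon 2 of 8, at chr12:78866680-78866682 on the plus strand of GRCm38. The stretch around it, chr12:78866662-78866700, is printed with that codon in capitals; the libraries' own reads were not analysed here, so it is the reference allele.
Eif2s1 serine codon: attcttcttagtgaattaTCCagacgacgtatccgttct
The Atf4 leader holds start codons ahead of the main one, and these make its translation depend on eIF2. They are printed from the reference transcript on the plus strand of chromosome 15, with each ATG in capitals. The first upstream frame shown has 3 codons before its stop and begins 196 bases before the main start (chr15:80255573-80255593). The next has 59 codons, and overlaps the main start out of frame; its printed window crosses an exon junction (chr15:80255672-80256213 with the intron). A further upstream start, 475 bases before the main one with 36 codons, is not shown. The main frame has 349 codons (chr15:80256290-80256310).
Atf4 upstream start, 3 codons: gcggccaccATGgcgtattag
Atf4 upstream start, 59 codons: gcctaagccATGgcgctcttc
Atf4 main start: ccccacaacATGaccgagatg

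Total counts per library ran from 4035130 to 21366801 in Eif2A and from 3511119 to 10864061 in TRAP. The series text counts as many mice as there are libraries and says no more of their origin. The p-values rest on the spread between the 16 libraries of the model, both 5xFAD groups among them, and not between the Eif2A and TRAP libraries alone. Microglia-defining genes (9 of the 10 listed, among them Csf1r and Tmem119) took 2.00% to 2.53% of counts in Eif2A and 1.94% to 2.76% in TRAP. TRAP replicate 2 stood apart for Cx3cr1, at 15 CPM (counts scaled to library size with TMM factors) against 547.1 to 637.7 CPM in the other TRAP libraries. Cx3cr1 is the locus of the driver, so this puts the labelled Cx3cr1CreErt2/+ genotype of that library in doubt. Counts from 4 Y-linked genes went against the labelled sex in Eif2A replicates 3 and 4. All Eif2A libraries were in labelled batch 1, and 1 TRAP library (replicate 5) was in batch 2. The labels do not say what a batch is. Without TRAP replicate 2, 156 genes changed in place of the 272 described next, and without both Eif2A libraries of doubtful sex 189 did.

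Expression was compared with edgeR's quasi-likelihood test, with batch and labelled sex as terms, over the 16 libraries without the iPKR construct. Of 13800 genes, 272 changed between Eif2A and TRAP at a Benjamini-Hochberg adjusted p under 0.05 (1.97%). In Eif2A 241 were higher (1.75% of genes tested) and 31 lower (0.225%). Without an adjustment 1869 genes had p under 0.05, and the median log2 fold change of all genes was -0.03. Most changes were small: 6 of the 241 higher genes reached a log2 fold change of 1, and 10 of the 31 lower genes reached -1. The values of all 4 Eif2A libraries lay above all 5 TRAP libraries for 391 genes (2.83%) and below them for 184 (1.33%).

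The calls depended on the model. No gene passed with all 29 libraries in the model (912 at an unadjusted p under 0.05) or with the 9 libraries alone (1349). The same held without the batch term (1453) and without Eif2A replicate 2 (1674), whereas DESeq2 with the main design called 602. The 241 higher genes kept a positive sign in 241 of 241 with all 29 libraries, at a median of 0.66, and in 240 of the 240 tested with the 9 libraries alone. These genes were picked for a positive value in the same libraries, so a kept sign in other fits is no separate check. In batch 1 alone, 40 genes changed, 34 higher and 6 lower.

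**Figure D1:**
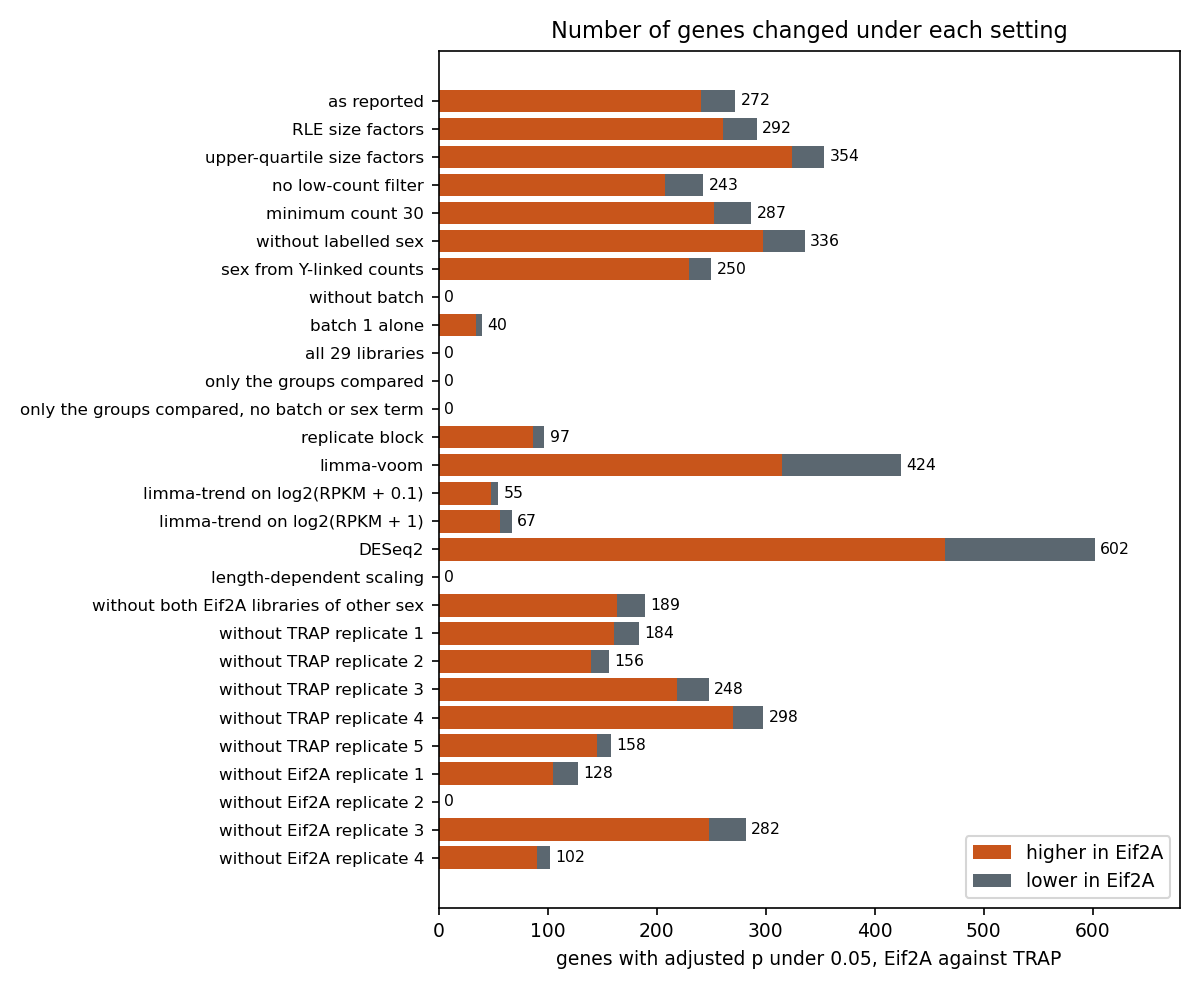
Number of genes with an adjusted p under 0.05 between Eif2A and TRAP (x axis) under the reported model and each other setting (rows), split into higher and lower in Eif2A. The count ran between 0 and 602, against 272 as reported, and higher genes were the larger part wherever genes were called.

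The largest group among the higher genes was that of cytosolic ribosomal proteins, which build the ribosome itself. In Eif2A 48 of the 73 tested were higher (background 1.75%) and 0 lower, and all 73 had a positive log2 fold change, against 46.5% of all genes. Their median log2 fold change was 0.59, and it lay between 0.29 and 0.74 over the 27 other settings. Small-subunit genes gave 25 of 31 higher (median 0.61), and large-subunit genes 23 of 42 (0.58). The list holds 79 genes, of which 74 were in the count table. Ribosomal protein genes have many near-identical processed pseudogenes, and reads could be split between them, so values of single members are uncertain.

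Relative to the TRAP mean, the average log2 level of these 73 genes was 0.74, 0.55, 0.17 and 0.52 in Eif2A replicates 1 to 4. In TRAP replicates 1 to 5 it was -0.01, -0.30, -0.11, 0.07 and 0.35. Eif2A replicates 1, 2 and 4 lay above every TRAP library, and Eif2A replicate 3 lay within the TRAP range, below the batch 2 library TRAP replicate 5. With batch 1 alone the median of the list was 0.55 with 7 members called, and without a batch term it was 0.45 with 0 called. Without TRAP replicate 2 it was 0.56 with 29 called, and without Eif2A replicate 2 it was 0.55 with 0 called.

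Rps21, a small-subunit protein gene, had 184.2, 137.8, 126.7 and 169.9 CPM in Eif2A, against 91.28, 61.93, 78.61, 103.5 and 81.49 CPM in TRAP. Every Eif2A library was above every TRAP library. Its log2 fold change was 0.92 ± 0.16 (SE), with adjusted p = 0.01026 by edgeR. The large-subunit genes Rpl31 and Rpl27 had 0.83 ± 0.14 and 0.60 ± 0.10, with overlap. Rpl26 had the highest value of the list, 1.00 ± 0.41, but did not pass (adjusted p = 0.299). The lowest were Rpl15 (0.16 ± 0.12) and Rpl4 (0.21 ± 0.11), which did not pass either.

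Translation of ribosomal protein mRNAs is known to hang on a tract of pyrimidines at their very 5′ end. A C at the annotated RefSeq start (GRCm38.p6) followed by at least 4 C or T letters, read on the gene's own strand only, was found in 12 of the 54 tested members with a start window (22.2%). It was found in 3.01% of all 27025 RefSeq genes in the table, and in 4 of 58 oxidative phosphorylation genes (6.9%). The median log2 fold change was 0.60 in the 12 members with the tract and 0.57 in the 42 without it at the annotated start. Where these mRNAs start in the cells was not measured. A member counted as without the tract may therefore have it, and the 2 medians do not test its part. Some called members with the tract and a small p are printed, 10 bases before and 20 from the start, with the tract in capitals.
Rps21, chr2:180257369-180257398, plus strand: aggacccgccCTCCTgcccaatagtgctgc
Rplp2, chr7:141447641-141447670, plus strand: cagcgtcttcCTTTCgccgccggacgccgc
Rpl38, chr11:114668570-114668599, plus strand: aagcctcgttCTTTCCCCgttctcttcggt
Rps27, chr3:90213629-90213658, minus strand: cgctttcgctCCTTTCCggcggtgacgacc
Rplp2, whose product forms part of the ribosomal stalk, had 300.1, 262.2, 217.2 and 275.1 CPM in Eif2A, against 169.1, 164.9, 171.1, 202.4 and 208.4 CPM in TRAP, without overlap (log2 fold change 0.61 ± 0.11). Rpl38 (0.80 ± 0.15) and Rps27 (0.87 ± 0.17) also had all Eif2A libraries above all TRAP libraries.

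Nuclear genes for the subunits of oxidative phosphorylation, the respiratory chain and ATP synthase of mitochondria, formed the other large group. In Eif2A 37 of the 70 tested were higher and 0 lower, 63 were positive, and the median log2 fold change was 0.47, with 0.16 to 0.54 over the other settings. By complex, 19 of 33 subunits of complex I (NADH dehydrogenase), 0 of 4 of complex II, 4 of 9 of complex III, 8 of 9 of complex IV (cytochrome c oxidase) and 6 of 15 of complex V (ATP synthase) were higher. The medians were 0.47, 0.16, 0.49, 0.56 and 0.37 in the same order.

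The mean log2 level of these 70 genes relative to TRAP was 0.44, 0.34, 0.22 and 0.45 in Eif2A replicates 1 to 4, and -0.17, -0.10, 0.07, 0.08 and 0.13 in TRAP replicates 1 to 5. Every Eif2A library lay above every TRAP library. Mitochondrially encoded genes, which supply the core of the same complexes, took 0.013% to 0.0206% of counts in Eif2A and 0.0188% to 0.0329% in TRAP. At shares this low they give no comparison with the nuclear genes. Of the 13 listed, 7 were tested, with 0 called and a median of 0.01. That median was -0.40 without the batch term. The median of the nuclear genes was 0.39 without the batch term and 0.49 without TRAP replicate 2, with 0 and 29 members called.

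Cox7a2, a small subunit of cytochrome c oxidase, had 409.9, 347, 348 and 368 CPM in Eif2A, against 217.5, 217, 255.1, 258.4 and 276.3 CPM in TRAP. The groups did not overlap. The log2 fold change was 0.64 ± 0.09 with adjusted p = 0.008437 by edgeR. Ndufa7 of complex I averaged 262.1 ± 16.2 CPM in Eif2A and 173.7 ± 34.84 CPM in TRAP (0.69 ± 0.10), and Ndufb9, also of complex I, 297.3 ± 13.4 CPM in Eif2A and 219.9 ± 23.16 CPM in TRAP (0.50 ± 0.08; SD, n = 4 and 5). Uqcr10 of complex III (0.67 ± 0.11) and the ATP synthase genes Atp5e (0.63 ± 0.10) and Usmg5 (0.71 ± 0.11) were likewise higher in Eif2A. Negative values were found in 7 members, none of them called, among them core subunits with long mRNAs: Sdha of complex II had -0.34 ± 0.09 (adjusted p = 0.06366), Uqcrc1 -0.21 ± 0.10, Atp5a1 -0.19 ± 0.09, Ndufs1 -0.12 ± 0.20 and Atp5b -0.07 ± 0.08.

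**Figure D2:**
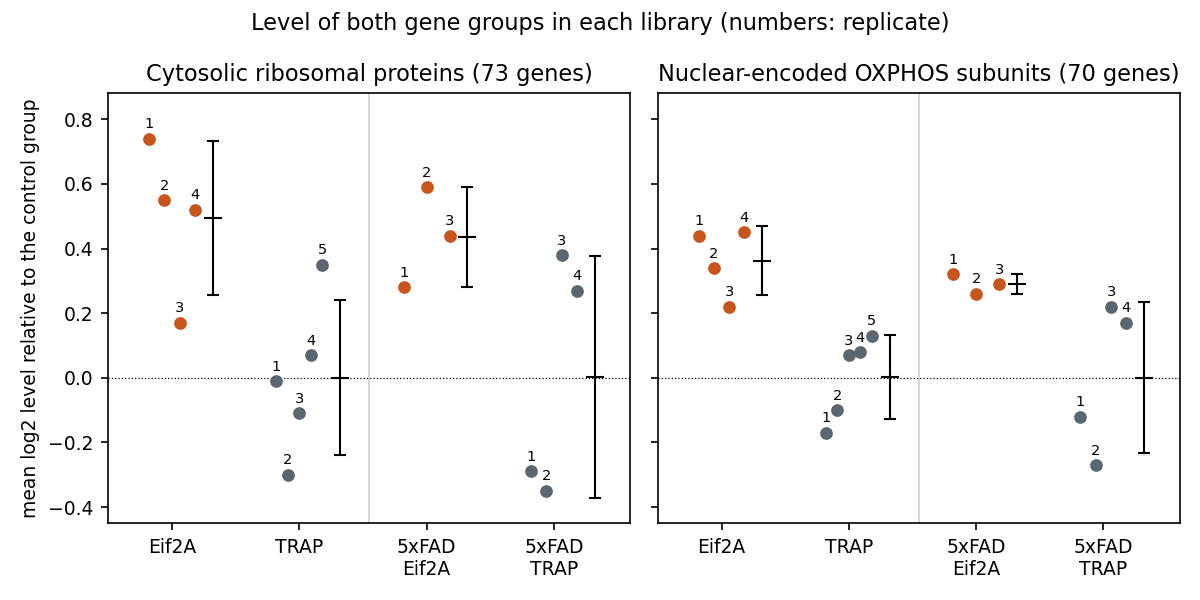
Mean log2 level (y axis) of 73 ribosomal protein genes (left) and 70 oxidative phosphorylation genes (right) in each library, relative to TRAP for Eif2A and TRAP and to 5xFAD TRAP for both 5xFAD groups. Points are libraries numbered by replicate and bars are mean ± SD; for oxidative phosphorylation all 4 Eif2A libraries, at 0.22 to 0.45, lie above the TRAP libraries, at -0.17 to 0.13.

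The log2 fold change varied with mRNA length over the genes tested. The 241 higher genes had a median spliced length of 743 bases, the 31 lower genes 4020 bases, and all genes with an annotated length 2666 bases. The median log2 fold change was 0.40 in 897 genes of up to 800 bases and 0.17 in 1969 genes of over 800 and up to 1500 bases. It was -0.03, -0.12 and -0.16 in the 3 longer classes, which end at 3000 bases, at 5000 bases and at no limit. In genes outside both groups above with a mean log2 CPM of at least 5, the 5 medians were 0.39, 0.18, -0.02, -0.12 and -0.17.

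Within both groups the called members were also the shorter ones, at a median of 676 bases against 975 for ribosomal protein genes that were not called, and 599 against 1231 bases for oxidative phosphorylation genes. In the shortest class the mean level per library was 0.43, 0.29, 0.18 and 0.45 in Eif2A, against -0.10, -0.12, 0.08, 0.03 and 0.10 in TRAP. All Eif2A libraries were above all TRAP libraries there. With a scaling that depends on length, chosen after seeing the data, 0 genes passed in edgeR (1182 at an unadjusted p under 0.05), and the medians were 0.29 for ribosomal protein genes and 0.16 for oxidative phosphorylation genes. Of the 232 higher genes with a length, 231 stayed positive, at a median of 0.27.

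**Figure D3:**
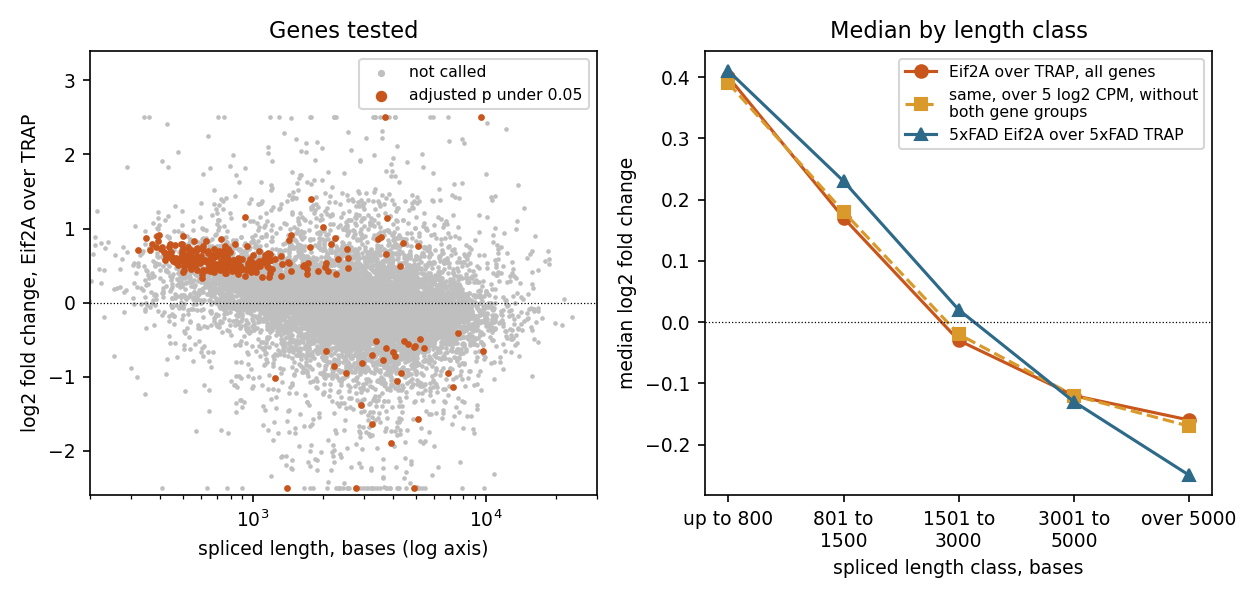
Log2 fold change of Eif2A over TRAP against spliced length on a log axis for single genes (left; values past 2.5 drawn at the edge), and the median by length class (right) for all genes, for well-expressed genes outside both groups and for 5xFAD Eif2A over 5xFAD TRAP. In all 3 lines the median falls with length, for Eif2A over TRAP to -0.16 in the longest class, against 0.40 in the shortest.

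Of the 241 higher genes, 156 were in neither group, and their median spliced length was 778 bases. Srp14, a subunit of the signal recognition particle that guides ribosomes to the ER, had 428, 411.9, 365.9 and 422.1 CPM in Eif2A and 282.4, 262.3, 307.9, 285.8 and 293.6 CPM in TRAP. All 4 Eif2A libraries were above TRAP (log2 fold change 0.52 ± 0.08). Sec61g, a subunit of the ER translocon, had 0.76 ± 0.12 with overlap through 1 TRAP library, the batch 2 replicate 5. Minos1, which helps shape mitochondrial cristae, had 0.60 ± 0.10, and Mrpl52, of the mitochondrial ribosome, 0.79 ± 0.11, both without overlap. Tmem256 averaged 194.7 ± 23.77 CPM in Eif2A and 135.3 ± 26.21 CPM in TRAP (0.57 ± 0.09). Among 73 mitochondrial ribosomal protein genes 5 were higher and 0 lower (median 0.27).

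Single members of other lists were higher as well. Tyrobp, the signalling adaptor of TREM2, had 5081, 4232, 3721 and 4466 CPM in Eif2A, against 2065, 3105, 3123, 3208 and 3582 CPM in TRAP. The groups did not overlap, and the log2 fold change was 0.57 ± 0.12. Aif1, which encodes the microglial protein IBA1, had 0.42 ± 0.10, with overlap. The spliceosome gene Snrpd1 (0.60 ± 0.12), the protease inhibitor gene Cstb (0.39 ± 0.09) and the proteasome gene Psmb3 (0.40 ± 0.09) were higher, as was the snoRNA host gene Gas5 (0.90 ± 0.20). Of these, Psmb3 was 1 of 31 proteasome genes (median 0.08) and Snrpd1 1 of 31 splicing genes (median -0.04). All 6 have spliced lengths below the median of all genes.

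The 31 lower genes were long at the median, and no list held more than 1 of them. Nrp1, which encodes the receptor neuropilin-1, had 39.18, 42.77, 52.1 and 50.8 CPM in Eif2A, against 74.99, 69.34, 88.96, 70.65 and 66.92 CPM in TRAP. Every Eif2A library lay below every TRAP library, and Nrp1 fell by 0.77 ± 0.12 on the log2 scale. Zfp36l1, whose product binds AU-rich mRNA and promotes its decay, had 11.08, 11.42, 8.409 and 9.986 CPM in Eif2A and 22.76, 16.67, 23.82, 20.32 and 13.05 CPM in TRAP (log2 fold change -1.02 ± 0.22), without overlap. Ift172, of the intraflagellar transport complex, had -1.38 ± 0.26, and Rell1 -1.64 ± 0.33, both without overlap.

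Further lower genes were Gpatch8 (-0.96 ± 0.19), Ap2a2 of the clathrin adaptor (-0.56 ± 0.11) and the actin crosslinker Actn4 (-0.61 ± 0.13), each with overlap. Cryz (-0.95 ± 0.21) and Hdlbp, an RNA-binding protein gene (-0.52 ± 0.12), also overlapped. Mapk8ip3, a scaffold of JNK signalling (-0.61 ± 0.14), and Whsc1, a histone methyltransferase gene (-0.75 ± 0.18), did not. Lrch2 was at 0 CPM in Eif2A replicates 1 and 2, at 0.0457 and 1.357 CPM in replicates 3 and 4, and at 2.033 to 4.947 CPM in TRAP. Its fitted log2 fold change of -4.34 ± 1.02 rests on few counts. In the lists, the endosomal receptor gene Tlr13 (-0.73 ± 0.18), the lysosomal glucosidase gene Gaa (-0.51 ± 0.13) and the synthetase gene Eprs (-0.60 ± 0.15) were lower, with adjusted p = 0.04684, 0.04231 and 0.04869 by edgeR. These calls lay near the threshold and held in 10, 8 and 6 of the 27 other settings. That of Eprs was lost without any 1 of the Eif2A libraries and without any 1 of TRAP replicates 1 to 4.

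Eif2s1 itself did not pass the test. It had 138.1, 119.8, 119.5 and 126.8 CPM in Eif2A, against 123.3, 110.9, 120.5, 105 and 111.6 CPM in TRAP, and the groups overlapped (log2 fold change 0.10 ± 0.10, adjusted p = 0.7113). The allele differs from the usual gene in 1 codon, and a count per gene does not separate it from the transgene, so these values do not check the genotype.

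Atf4 was higher in Eif2A. It had 237.1, 195.9, 219.2 and 199.7 CPM in Eif2A, against 147.7, 140.3, 146.6, 150.5 and 144.3 CPM in TRAP. Every Eif2A library was above every TRAP library, and the TRAP libraries lay within a narrow band. The log2 fold change was 0.54 ± 0.10 with adjusted p = 0.01361 by edgeR, and its sign was positive under all 27 other settings, at 0.46 to 0.61. The call held in 18 of them. It was lost in batch 1 alone and on both RPKM scales, where 40, 55 and 67 genes passed, and in the 6 settings in which no gene passed, among them the fit without Eif2A replicate 2. The value refers to Atf4 mRNA on tagged ribosomes, with the start codons printed above; ATF4 protein was not measured, and binding to the upstream frames cannot be told apart from binding to the main one.

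Of the 30 tested members of the list of ATF4 and integrated stress response targets, 0 passed in either direction, against 1.97% of all genes. A list of this size can hold 0 calls at that share. In the list 9 were positive (46.5% of all genes), and the median was -0.12. Ddit3, which encodes CHOP, had 39.49, 36.94, 30.07 and 37.13 CPM in Eif2A and 27.93, 36.26, 28.77, 28.47 and 27.61 CPM in TRAP (0.37 ± 0.21, adjusted p = 0.48). Asns, for asparagine synthesis, had -0.25 ± 0.34, and Phgdh and Psat1, of the serine pathway, had -0.34 ± 0.15 and -0.07 ± 0.18. Trib3 (0.61 ± 0.50), Chac1 (-0.17 ± 0.55), Sesn2 (-0.46 ± 0.47), Ddit4 (-0.87 ± 0.68), Atf5 (0.39 ± 0.50) and the cystine transporter gene Slc7a11 (0.05 ± 0.43) had few counts or wide errors, with overlapping groups. None of these genes passed, which does not show that they were equal.

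**Figure D4:**
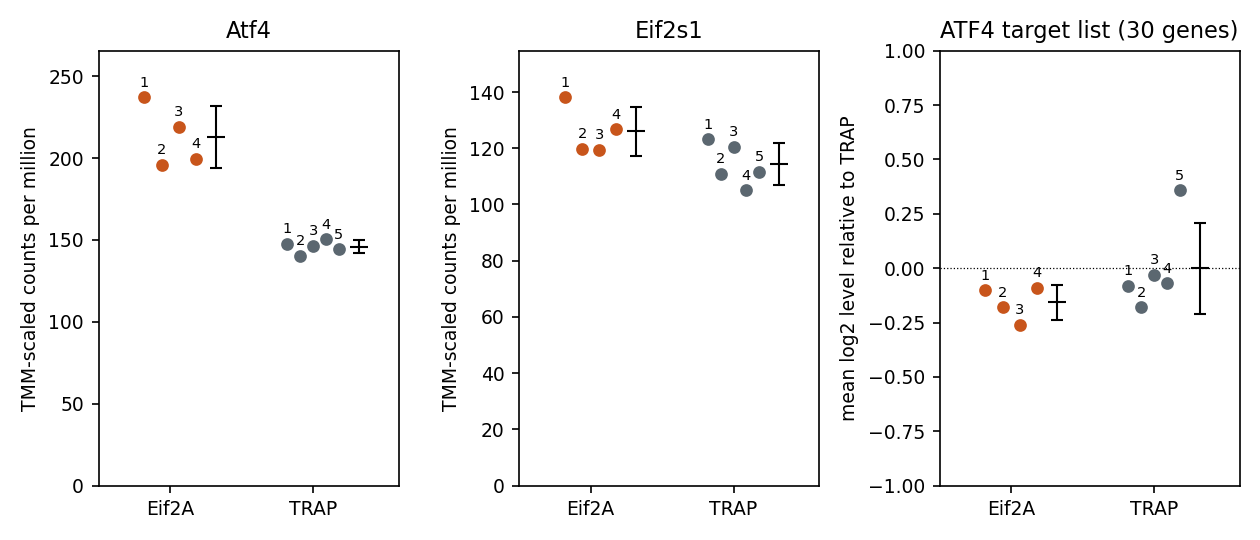
CPM of Atf4 and Eif2s1 and the mean log2 level of 30 ATF4 target genes (y axes) in Eif2A and TRAP libraries. Points are libraries numbered by replicate and bars are mean ± SD; only for Atf4, among these 3, do all Eif2A libraries (195.9 to 237.1) lie above all TRAP libraries (140.3 to 150.5).

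The pathway's other components gave no call. Of 18 tested genes for eIF2 and eIF2B subunits, eIF2 kinases and phosphatase subunits 0 passed (median -0.16), against 1.97% of all genes. The kinase genes Eif2ak1 (HRI), Eif2ak2 (PKR), Eif2ak3 (PERK) and Eif2ak4 (GCN2) had -0.27 ± 0.11, -0.18 ± 0.37, 0.18 ± 0.21 and -0.56 ± 0.33. Ppp1r15a, the inducible regulatory subunit of the eIF2α phosphatase, had 0.20 ± 0.21, and the constitutive one, Ppp1r15b, -0.26 ± 0.14. Of 16 mRNAs known to be translated better under eIF2α phosphorylation through upstream frames, Atf4 was higher, Eprs lower and 14 did not pass (median -0.03). Among 20 aminoacyl-tRNA synthetase genes Eprs was the 1 that passed, with the weak call described above (list median -0.08), and of 34 other translation factors 0 passed (median 0.02).

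Genes of microglial state mostly did not pass, as held for all genes, of which 1.97% passed. Lists this short can hold 0 calls at that share. Homeostatic genes gave 0 of 19 (median -0.04), with Tmem119 at -0.12 ± 0.14 and Csf1r at -0.27 ± 0.09 (adjusted p = 0.1839). Cx3cr1 had 492.4 ± 63.21 CPM in Eif2A and 481.7 ± 263.3 CPM in TRAP, the wide TRAP spread coming from replicate 2. Of 28 disease-associated genes, Tyrobp and Cstb were higher and the median was 0.00. Cst7, a cystatin gene known to be induced near plaques, had -1.15 ± 0.31 (adjusted p = 0.07513), and Apoe -0.64 ± 0.27. Lysosomal genes (29, median -0.12) had Gaa alone as a call, lower in Eif2A, and ER chaperones (22, median -0.10), complement (12, median -0.05) and inflammatory genes (18, median 0.22) had none.

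Trim30a was the 1 of 25 interferon response genes that passed (list median 0.09). It had 1168, 824.8, 833.9 and 450.3 CPM in Eif2A, against 309.3, 333, 491.9, 379 and 251.4 CPM in TRAP. Eif2A replicates 1 to 3 were above all TRAP libraries, and Eif2A replicate 4 lay below TRAP replicate 3. The log2 fold change was 1.15 ± 0.22, with adjusted p = 0.01504 by edgeR. As a list the interferon genes were uneven in TRAP: their mean level was 1.04 in TRAP replicate 2 and -0.41 to -0.15 in the other TRAP libraries, against -0.28, 0.21, -0.13 and -0.05 in Eif2A. Over the 27 other settings Trim30a stayed between 0.89 and 1.41 and kept its call in 16.

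**Figure D5:**
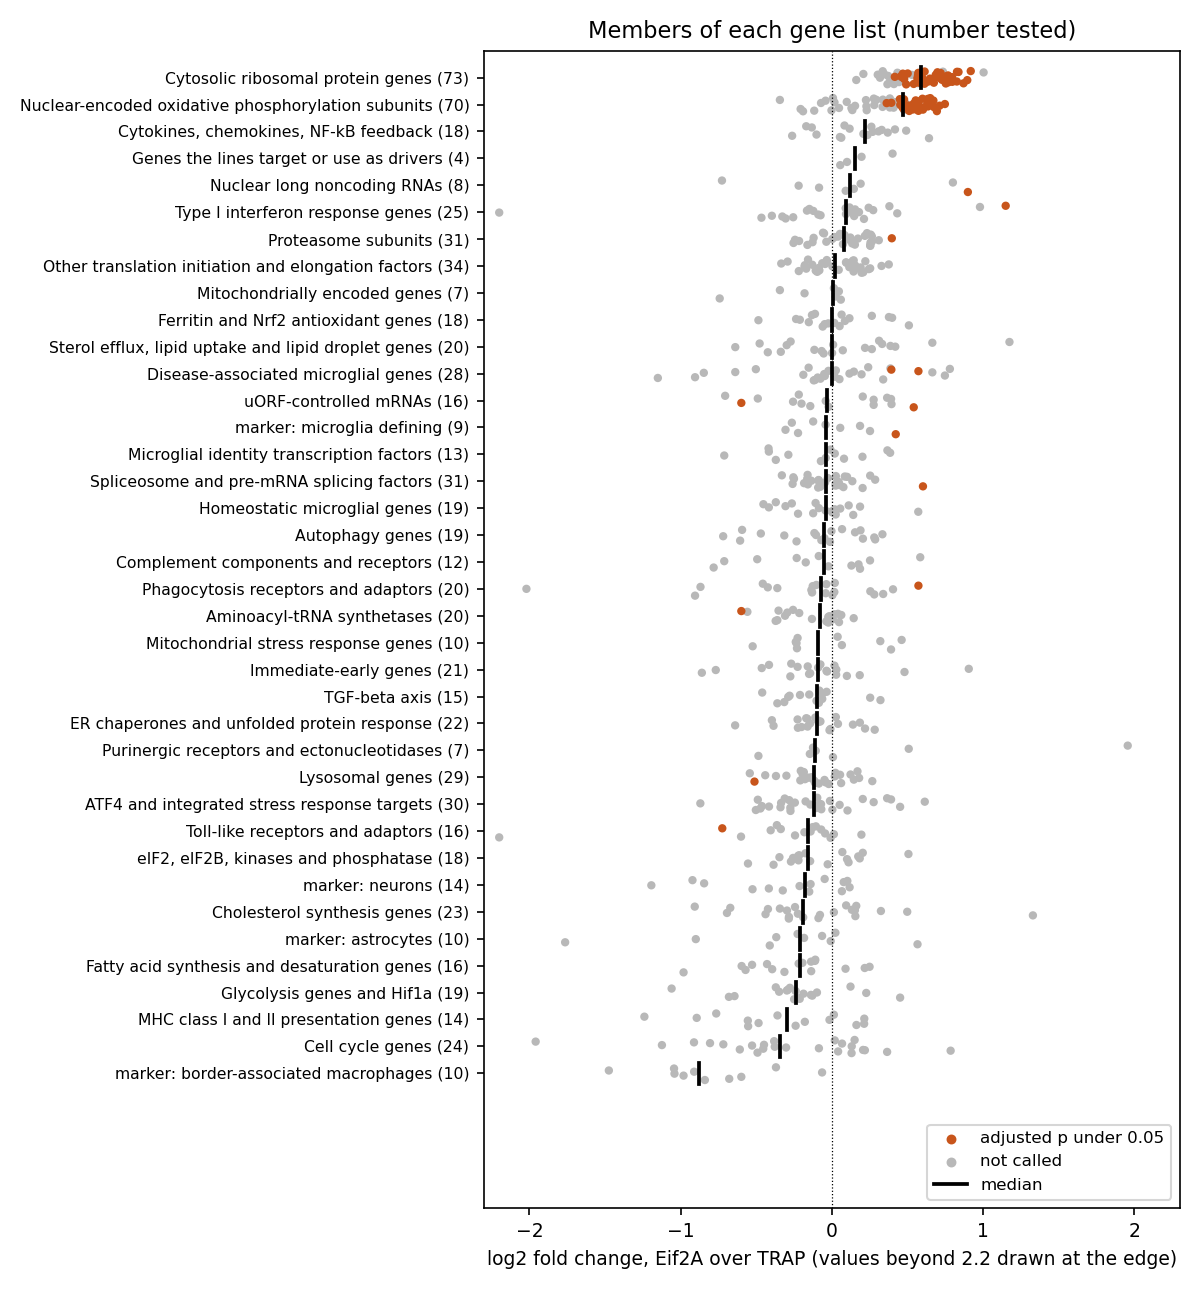
Log2 fold change of Eif2A over TRAP (x axis) for each tested member of the gene lists and of 4 marker lists, with the number tested in parentheses and a black bar at the median. Ribosomal protein genes (median 0.59) and oxidative phosphorylation genes (0.47) stand at the top with most of the called members, and each other list shown holds at most 2.

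Markers of other cells took small shares of the counts in both groups. Calls among them are read beside the 1.97% of all genes that passed. Neuronal markers took 0.125% to 0.161% of counts in Eif2A and 0.147% to 0.184% in TRAP, with 0 of 14 called (median -0.18). Astrocyte markers took 0.0439% to 0.0707% in Eif2A and 0.0557% to 0.0715% in TRAP (0 of 10, median -0.21). Markers of oligodendrocytes took 0.0509% to 0.0752% in Eif2A and 0.0553% to 0.0889% in TRAP. Markers of border-associated macrophages took 0.0136% to 0.0288% in Eif2A and 0.0117% to 0.0561% in TRAP, and were below 0 on the log2 scale in all 10 members, with 0 called and a median of -0.88. Their mean level was -0.29, -1.41, -0.36 and -0.35 in Eif2A, against 0.59, -1.68, 0.79, -0.24 and 0.54 in TRAP, so that the groups overlapped. Lyve1 had the lowest value of these, -1.48 ± 0.47 (adjusted p = 0.1276). In bulk RNA, fewer cells of a type and less RNA per cell cannot be told apart. The part of these cells in the other results was not tested.

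The same genotype could be read in libraries outside both groups, 5xFAD Eif2A against 5xFAD TRAP. There the genotype cannot be told apart from VEGF and ASV, which only the 5xFAD TRAP mice had received. All 3 5xFAD Eif2A libraries were in batch 1, and 2 of the 4 5xFAD TRAP libraries were in batch 2. In that comparison 586 genes changed (4.25%), 66.7% of them higher (36.6% with log2(RPKM + 0.1)). The count was 598 in batch 1 alone, 8 without the batch term and 27 with all 29 libraries. With 1 library left out it was lowest without 5xFAD TRAP replicate 1 (132), 5xFAD Eif2A replicate 2 (183), 5xFAD TRAP replicate 2 (200) and 5xFAD Eif2A replicate 3 (252). Of the 241 genes higher in Eif2A, 236 were positive there (48.8% of all genes), and 134 were called higher. These are 55.6% of the 241 and 34.3% of the 391 genes higher in the 5xFAD comparison (2.83% of genes tested). Of the 31 lower genes, 25 were negative and 5 called lower, which is 16.1% of the 31 and 2.56% of the 195 lower genes (1.41% of genes tested). Both comparisons share the model's batch and sex terms and its spread per gene.

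In 5xFAD mice the median was 0.68 for ribosomal protein genes, with 43 of 73 higher and 73 positive, and 0.45 for oxidative phosphorylation genes, with 31 of 70 higher and Sdha lower. The mean level of the ribosomal protein genes was 0.28, 0.59 and 0.44 in 5xFAD Eif2A, against -0.29 and -0.35 in the batch 1 libraries and 0.38 and 0.27 in the batch 2 libraries of 5xFAD TRAP. That of the oxidative phosphorylation genes was 0.32, 0.26 and 0.29 in 5xFAD Eif2A, against -0.12 and -0.27 in batch 1 and 0.22 and 0.17 in batch 2 of 5xFAD TRAP. The groups overlapped for ribosomal protein genes through 5xFAD TRAP replicate 3 and did not overlap for oxidative phosphorylation genes. The length classes ran from 0.41 in the shortest to -0.25 in the longest. Cox7a2 (0.51 ± 0.12), Ndufa7 (0.69 ± 0.13), Rpl31 (0.83 ± 0.18) and Tyrobp (0.77 ± 0.15) were again higher. Rps21 had 0.22 ± 0.20 and did not pass (adjusted p = 0.6534). Trim30a had -0.41 ± 0.28, with a difference between the effects of -1.56 (adjusted p = 0.08381). Atf4 had 0.26 ± 0.13 and did not pass (adjusted p = 0.3352), and Nrp1 had -0.03 ± 0.15. Whether the effect differed was tested itself: 42 of 13800 genes did (0.304%), 2 of them among the 241 higher and 0 among the 31 lower genes. For Atf4 the difference was -0.28 (adjusted p = 0.6184) and for Nrp1 0.74 (adjusted p = 0.1304).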

How the data were processed

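The first deposited table holds raw counts per gene symbol, and the second holds RPKM values, by its name scaled by the authors to library size and gene length; it served for alternatives only. Per the submitters' processing notes, Trim Galore, HISAT2 2.2.1 and featureCounts 2.0.3 were used with mm10; annotation, strandedness and treatment of multiply mapped reads are not given in the sources used here. Counts were tested as deposited with edgeR 4.0.16 (R 4.3.3; TMM factors, filterByExpr by group with minimum count 10 and minimum total 15, robust quasi-likelihood F-test, Benjamini-Hochberg over 13800 genes, threshold 0.05, no minimum fold). The model had group, labelled batch and labelled sex over 16 libraries. Tests are two-sided, and CPM are TMM-scaled. Errors of fold changes are standard errors worked back from the test, as the absolute log2 fold change over the square root of its F statistic. Mean levels are averages of log2 CPM with a prior count of 1. Limma 3.58.1 and DESeq2 1.42.0 served as alternatives, and so did a length-dependent scaling, in which a loess curve of each library's level on spliced length was added to the offsets. The fit of Eif2A against TRAP was tested on simulated data with known changes between these groups. Those data held no effects of batch, sex or length, so they do not bear on how the calls depend on them.

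In each direction the 12 changed genes of lowest p are named (absolute log2 fold change of at least 0.5, mean log2 CPM of at least 1), up to 4 changed members of each list, and a fixed set of integrated stress response and microglial genes. Further genes are named where a list's extremes are given, chosen after their values were seen. The groups, genes and 45 lists were chosen with earlier results of these data known. Spliced lengths and coordinates come from GENCODE on GRCm38, in which 21439 of 22327 symbols were found. In 16 pairs of replicates the lowest chi-square per degree of freedom was 10.8, so no library was a copy of another. Some genes of the lists were not analysed here, among them P2ry12, and some named by the rule are not reported here.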

Additional observations from a re-analysis of the deposited data

Results flagged for a closer look

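Within a group, a library was picked out when its gap to the nearest other library was a large part of the group's whole range (Dixon's test at its 95% critical value). This was run on 204 groups of values, of which chance alone would pick out about 1 in 20, and it picked out 16.

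In Eif2A, replicate 4 was high for Lrch2 (1.357 CPM against 0 to 0.0457) and low for Whsc1 (14.93 CPM against 19.98 to 20.66). Replicate 3 was low for Psmb3 (188.4 CPM against 227.7 to 231.7) and high for Tmem119 (2554 CPM against 1752 to 1867). Replicate 1 was high for Atf5 (6.868 CPM against 2.468 to 2.916) and low for the mean level of cholesterol synthesis genes (-0.20 against -0.02 to 0.00). Replicate 2 was low for the mean level of border-associated macrophage markers (-1.41 against -0.36 to -0.29).

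In TRAP, replicate 2 was low for Cx3cr1 (15 CPM against 547.1 to 637.7) and for the mean level of the 4 genes that the lines target or use as drivers (-1.15 against 0.16 to 0.37), Cx3cr1 being 1 of them. It was high for Ddit3 (36.26 CPM against 27.61 to 28.77) and for the mean level of interferon response genes (1.04 against -0.41 to -0.15). Replicate 3 was high for Ddit4 (221 CPM against 41.26 to 75.73). Replicate 5, the batch 2 library, was high for Psmb3 (196.5 CPM against 161.4 to 171), for the mean level of ATF4 targets (0.36 against -0.18 to -0.03) and for neuronal markers (0.06 against -0.03 to -0.01), and low for microglial identity factors (-0.42 against 0.04 to 0.17).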

How the results depend on the processing

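The 272 genes changed between Eif2A and TRAP became 0 without batch, with all 29 libraries, with only the groups compared, with only those and no batch or sex term, and with length-dependent scaling, 40 with batch 1 alone, 55 and 67 with limma-trend on log2(RPKM + 0.1) and log2(RPKM + 1), 424 with limma-voom and 602 with DESeq2. They ran from 0 to 298 with 1 library left out: 0 without Eif2A replicate 2, 102 without replicate 4, 128 without replicate 1, 156 and 158 without TRAP replicates 2 and 5. The share of higher calls was 88.6%, with limma-voom 74.3% and with DESeq2 77.2%. The 586 genes of the 5xFAD comparison became 8 without batch, 27 with all 29 libraries, 1095 with only the groups compared, 389 with limma-voom, 970 with DESeq2 and 248 with length-dependent scaling, and ran from 132 to 592 with 1 library left out. The 42 genes whose effect differed became 0 without batch, 11 with batch 1 alone, 1 with all 29 libraries and 121 with DESeq2, and ran from 9 to 64 with 1 library left out. The cause was not tested. Length-dependent scaling, the fit without both Eif2A libraries whose Y-linked counts go against their label (189 genes) and the fit of the 2 groups with no further term were chosen after seeing the data.

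With replicate number as a block the 3 counts were 97, 538 and 19. The numbers do not pair the mice: same-numbered Eif2A and TRAP libraries had correlations of -0.113 to 0.133 over 5467 genes, 1 of 4 over 0.1, and 0 of 4 Eif2A libraries correlated best with its own number.

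All 37 named genes that changed kept their sign in every setting, and kept the call in 6 to 21 of 27. They were named for their call in the reported model, whose libraries the settings reuse, so the kept sign is no separate check. The 20 named genes not called were called in none, and 11 of them changed sign in some, with 33 such values. Psat1 had 0.09 without sex, 0.18 without batch, 0.01 with all libraries, 0.24 with the groups alone and no terms, and 0.11 without both Eif2A libraries of doubtful sex. Slc7a11 had -0.20 without batch, -0.20 with the groups alone and no terms, -0.15 without both Eif2A libraries, -0.01 with only the groups compared, and -0.0016 and -0.00019 on the RPKM scales. Ppp1r15a had -0.11 without batch and -0.12 with the groups alone and no terms. Chac1 had 0.04 with only the groups compared, 0.03 with the block and 0.02 with limma-voom, and Ddit3 -0.05 with length-dependent scaling. Without both Eif2A libraries Cx3cr1 had -0.09, Eif2ak2 0.01 and Trib3 -0.48. With 1 library left out the range was -0.28 to 0.26 for Cx3cr1, -0.39 to 0.12 for Eif2ak2, -0.02 to 0.62 for Atf5, -0.25 to 0.01 for Psat1, -0.53 to 0.07 for Chac1, -1.24 to 0.42 for Ddit4, -0.15 to 0.27 for Slc7a11 and -0.27 to 0.09 for Tmem119. Of list medians, 1188 moved by less than the spread between libraries and 27 by more.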

Other observations

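The genes named here lie outside all lists and were chosen after their values were seen, not by the size of their change. Aass, which encodes an enzyme of lysine breakdown, had 12.17, 2.43, 8.774 and 3.393 CPM in Eif2A, against 0, 0, 0, 0.1031 and 0.5083 CPM in TRAP, without overlap (adjusted p = 0.03288 by edgeR). Its fitted log2 fold change of 6.31 ± 1.48 rests on few counts in TRAP. In 5xFAD Eif2A it was at 0, 0 and 4.91 CPM, and it did not pass against 5xFAD TRAP (adjusted p = 0.2892). Eva1a, a regulator of autophagy, had 75.54, 77.52, 24.72 and 75.91 CPM in Eif2A, against 17.33, 11.91, 31.15, 21.56 and 45.23 CPM in TRAP. Replicate 3 of Eif2A lay among the TRAP libraries and the other 3 above them (log2 fold change 1.40 ± 0.31). Macrod2 had 59.04 to 69.26 CPM in Eif2A and 25.75 to 46.63 CPM in TRAP (0.89 ± 0.19), and -0.49 ± 0.26 in 5xFAD Eif2A over 5xFAD TRAP, which did not pass (adjusted p = 0.3425). Tmsb4x, a small actin-binding protein gene, had 62860, 54960, 47820 and 53650 CPM in Eif2A, against 41070, 39850, 40320, 40010 and 47520 CPM in TRAP (0.50 ± 0.11).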
